A study of Mus musculus with 2 samples.

Results

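A set of 10 genes widely used to recognise fibroblasts were followed across the 2 arrays of the series: the growth factor and collagen receptors Pdgfra, Pdgfrb and Ddr2, the surface proteins Thy1 and Fap, the calcium-binding protein S100a4, and the transcription factors Twist1, Twist2, Prrx1 and Snai2. They were chosen by gene symbol in the platform annotation, and 9 of the 10 were found, by 12 probes, among 16593 named genes and 25697 probes. No probe is named Snai2 in the annotation used here, so Snai2 was not analysed here. The series set mouse fibroblasts that were grown with gold nanoparticles (AuNPs) under an electromagnetic field (EMF) against control fibroblasts, with 1 array per condition. Its title places the comparison in work on turning cells into dopamine neurons by EMF. The labels give no strain, age, tissue of origin, exposure time or field strength, and there is no array of AuNPs alone or of EMF alone, so the 2 exposures cannot be told apart. Neither array has a replicate. The differences below therefore carry no replicate error and no test between conditions, and their precision is limited by having 1 array on each side.

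Fibroblasts are the mesenchymal cells that make and remodel connective tissue. Platelet-derived growth factors act on them through the receptor tyrosine kinases PDGFRα and PDGFRβ, which drive proliferation and migration, and fibrillar collagen acts through the receptor tyrosine kinase DDR2. The basic helix-loop-helix factors TWIST1 and TWIST2, the homeodomain factor PRRX1 and the zinc-finger factor SNAI2 set mesenchymal identity in the embryo, and TWIST and SNAI factors also repress epithelial genes during the epithelial-mesenchymal transition (EMT).

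In EMF and AuNP cells, 7 of the 9 genes lay within 1.16-fold of control cells, while Ddr2 was 1.53-fold higher and S100a4 1.40-fold lower. None of the 9 differed by 2-fold, where of the 8651 detected genes 0.52% were at least 2-fold higher and 0.485% at least 2-fold lower, together 1.01%. Only Ddr2 passed 1.5-fold higher, and none of the 9 passed 1.5-fold lower. Over all detected genes, 3.34% passed 1.5-fold higher and 2.91% passed it lower, together 6.25%, so neither 0 of 9 at 2-fold nor 1 of 9 at 1.5-fold is a result about the group. The median log2 difference of the 9 genes, EMF and AuNPs minus control, was -0.01, with 4 above 0 and 5 below. Over all detected genes the median was 0.03, and of the 8646 with a value 4826 lay above 0 and 3806 below. The differences of the 9 genes ran from -0.49 for S100a4 to 0.61 for Ddr2. By their brightest probe all 9 genes had a detection p of 0 (brighter than every negative-control bead) on each array, so each has a measured difference and none rests on a bound. With 3 further fibroblast genes, Col1a1, Col1a2 and Vim, 12 of 13 markers were on the arrays and all 12 were detected. Col1a1, Col1a2 and Vim differed by -0.15, -0.01 and -0.37, each short of 1.5-fold.

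**Figure D1:**
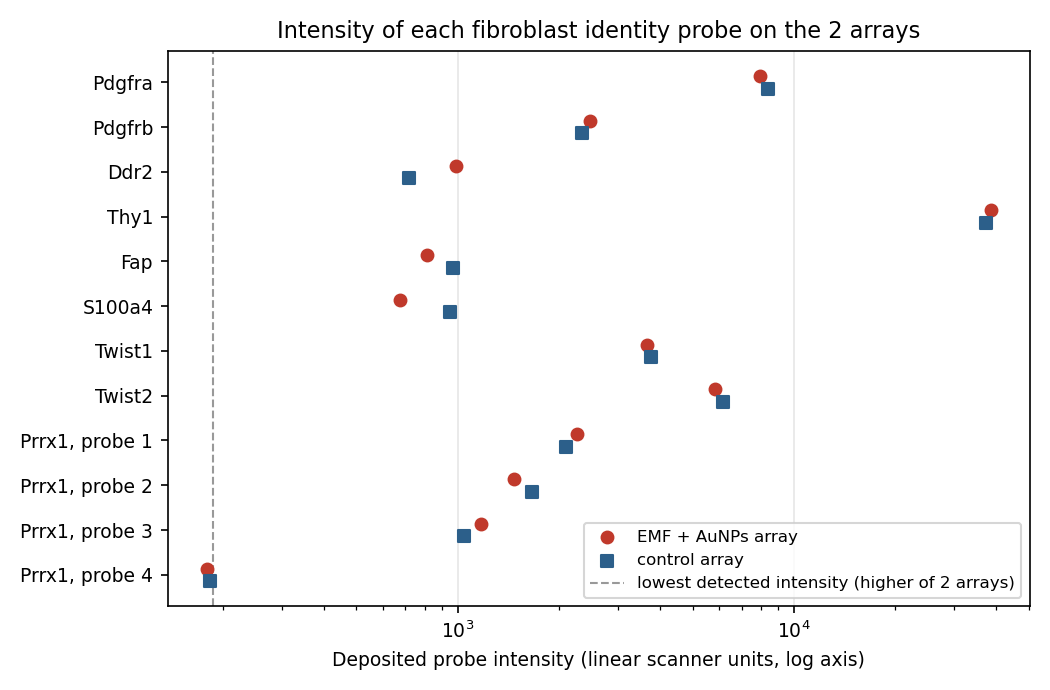
Deposited intensity (linear scanner units on a log axis) of the 12 probes of the 9 genes, with EMF and AuNPs as circles and control as squares. Ddr2 lies to the right of its control value and S100a4 to the left of it, the other pairs lie closer together, and the fourth Prrx1 probe lies at the limit of detection. Levels of different probes are not comparable with each other.

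A yardstick for single genes was taken from the arrays themselves. Genes detected on both arrays were sorted by mean signal into 20 equal bins, and the robust SD of the differences (the median absolute deviation, scaled to match the SD of a normal distribution) was taken in each. It ran from 0.14 to 0.24 on the log2 scale in the bins of the 9 genes. This spread mixes real change with noise and is no substitute for replicates. A second yardstick was the disagreement between 2 probes of 1 transcript. Over 830 transcripts with 2 probes at least as bright as the dimmest of the 9 genes, the log2 differences of the 2 probes disagreed by a median of 0.15 with 1 transcript in 20 at 0.53 or more, and in 32 transcripts (3.86%) by 1.5-fold or more.

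Pdgfra, a receptor for PDGF-AA and PDGF-CC, had an intensity of 7964 in EMF and AuNP cells and 8402 in control cells, a log2 difference of -0.09 after normalization. Pdgfrb, a receptor for PDGF-BB and a marker of pericytes as well, had 2481 in EMF and AuNP cells and 2352 in control cells, a difference of 0.12. Both lay within the robust SD of genes of like brightness, 0.17 for Pdgfra and 0.18 for Pdgfrb.

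Ddr2, which binds fibrillar collagen and signals slowly compared with growth factor receptors, had an intensity of 989 in EMF and AuNP cells and 716 in control cells. Its log2 difference of 0.61 was 2.64 times the robust SD of 0.23 for its brightness. Of 410 genes of like brightness, 11 (2.68%) were at least 1.5-fold higher. Its difference also exceeded 0.53, the disagreement that 1 in 20 of these brighter probe pairs reached. Over all 1906 transcripts with 2 detected probes, dimmer ones included, that value was 0.74, which Ddr2 did not exceed. Ddr2 has 1 probe, so no other probe could be compared with it. Without background correction the difference was 0.54, or 1.45-fold, and Ddr2 was then under 1.5-fold.

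Thy1, the glycolipid-anchored surface antigen CD90, gave an intensity of 38509 in EMF and AuNP cells and 37297 in control cells, a difference of 0.05 against a robust SD of 0.14. Fap, a membrane serine protease of activated fibroblasts, had 809.6 in EMF and AuNP cells and 967 in control cells, a difference of -0.21 against 0.23. Neither gene moved beyond the spread of genes of its brightness.

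S100a4, a calcium-binding protein named fibroblast-specific protein although macrophages and other leukocytes carry it too, was the lowest of the 9. Its intensity was 674 in EMF and AuNP cells and 948 in control cells. The log2 difference of -0.49, or 1.40-fold lower, was 1.98 times the robust SD of 0.24 and stayed short of 1.5-fold. Of 410 genes of like brightness, 15 (3.66%) were at least 1.5-fold lower. It was smaller than 0.53, the disagreement that 1 in 20 probe pairs reached, and S100a4 too has 1 probe. In total RNA of a whole culture, fewer cells of a type and less RNA per cell cannot be told apart.

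The transcription factors lay close to 0. Twist1 had an intensity of 3667 in EMF and AuNP cells and 3767 in control cells, and Twist2 had 5825 in EMF and AuNP cells and 6159 in control cells. Their differences were -0.01 and -0.06, against robust SDs of 0.18 and 0.17. The sign for Twist1 depends on the scaling, since it was 0.04 after median centring.

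Prrx1, a homeobox gene of limb and craniofacial mesenchyme, is the only one of the 9 with several probes, and they did not run the same way. The brightest, ILMN_2678094, had 2269 in EMF and AuNP cells and 2107 in control cells, a difference of 0.15. A second probe annotated to the same transcript, NM_011127, is ILMN_2614463, with 1471 in EMF and AuNP cells and 1666 in control cells, a difference of -0.14. These 2 probes of 1 transcript thus disagreed by 0.30 while each stayed within 1.5-fold. For the other annotated transcript, NM_175686, ILMN_3057018 had 1175 in EMF and AuNP cells and 1045 in control cells, a difference of 0.26. The last probe, ILMN_3134079, had 179.7 in EMF and AuNP cells and 184 in control cells, and its detection p of 0.0113, the same on each array, missed the limit of 0.01. The 3 detected probes give Prrx1 no direction.

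**Figure D2:**
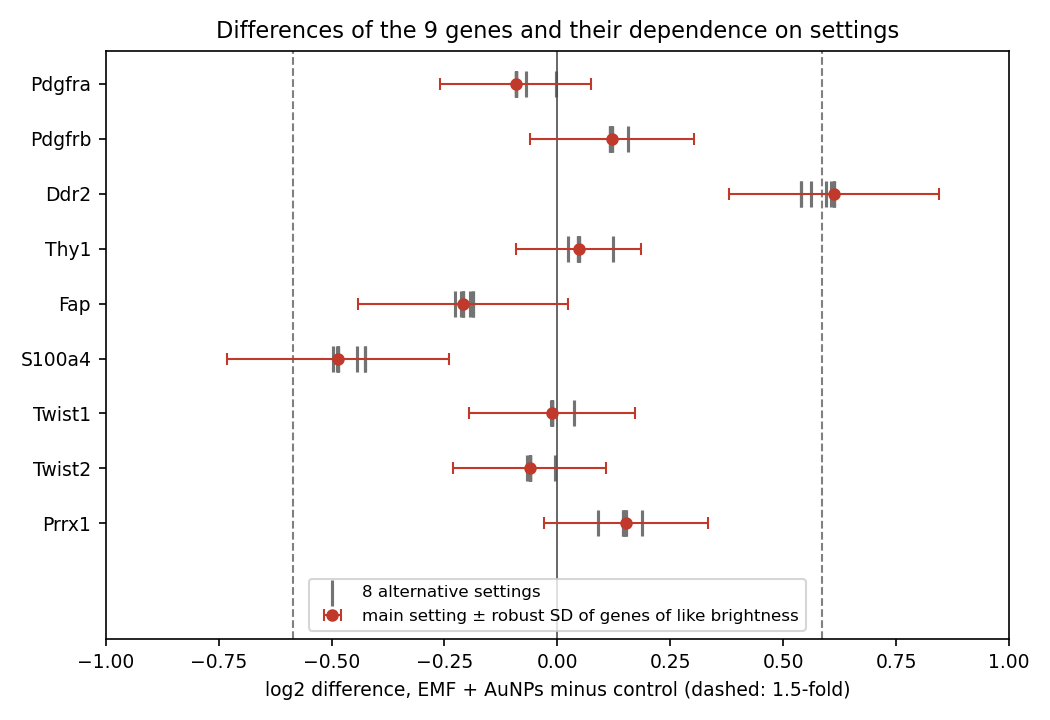
Log2 difference (EMF and AuNPs minus control) of the 9 genes by their brightest probe. Points show the values reported, bars the robust SD of genes of like brightness (not a replicate error), grey ticks the 8 alternative settings and dashed lines 1.5-fold. Ddr2 lies at 0.61 with ticks down to 0.54, S100a4 lies at -0.49, and 7 genes lie between -0.21 and 0.15.

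**Figure D3:**
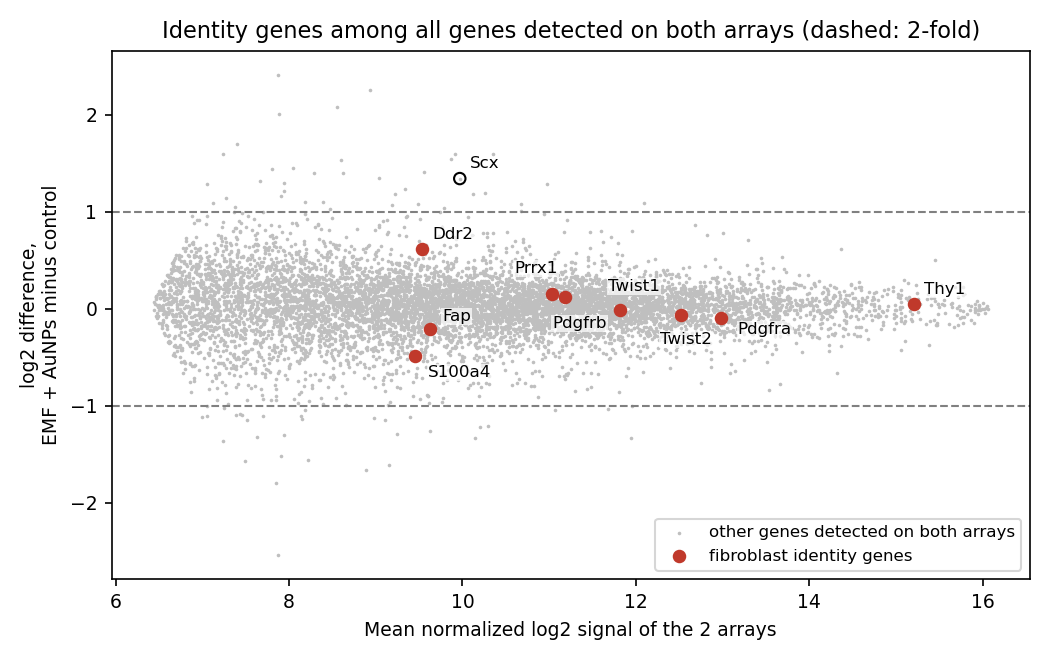
Log2 difference (EMF and AuNPs minus control) against mean normalized log2 signal for genes detected on both arrays, with the 9 genes filled and Scx, a transcription factor of a related list, as an open circle. Dashed lines mark 2-fold, which Scx passes at 1.34 and none of the 9 does.

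RefSeq promoter windows, from 250 bases before to 50 after an annotated start site in GRCm38.p6, were given for 6 of the 10 genes. Those of the 2 genes with the largest differences and of the 2 Twist genes, which lay close to 0, are printed on the gene's own strand to set their base composition side by side, with each CG dinucleotide in capitals. The Ddr2 window lies on the minus strand at chr1:170088895-170089194, that of S100a4 on the plus strand at chr3:90603520-90603819, that of Twist1 on the plus strand at chr12:33957421-33957720 and that of Twist2 on the plus strand at chr1:91801211-91801510. The annotated Ddr2 gene reaches 21892 bases further upstream, so this start is not its furthest upstream end. The same holds for the windows of Prrx1 (1495 bases) and Pdgfra (929 bases), which are not printed.
Ddr2: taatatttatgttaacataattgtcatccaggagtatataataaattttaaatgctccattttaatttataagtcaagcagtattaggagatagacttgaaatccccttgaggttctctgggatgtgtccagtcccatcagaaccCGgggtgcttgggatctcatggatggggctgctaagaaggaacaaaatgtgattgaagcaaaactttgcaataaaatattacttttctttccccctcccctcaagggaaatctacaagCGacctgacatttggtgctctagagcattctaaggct
S100a4: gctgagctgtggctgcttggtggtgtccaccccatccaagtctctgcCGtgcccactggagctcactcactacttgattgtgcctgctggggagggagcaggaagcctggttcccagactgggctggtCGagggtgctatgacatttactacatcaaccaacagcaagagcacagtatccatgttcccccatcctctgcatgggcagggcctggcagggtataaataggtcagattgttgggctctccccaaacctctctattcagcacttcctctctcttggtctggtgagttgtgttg
Twist1: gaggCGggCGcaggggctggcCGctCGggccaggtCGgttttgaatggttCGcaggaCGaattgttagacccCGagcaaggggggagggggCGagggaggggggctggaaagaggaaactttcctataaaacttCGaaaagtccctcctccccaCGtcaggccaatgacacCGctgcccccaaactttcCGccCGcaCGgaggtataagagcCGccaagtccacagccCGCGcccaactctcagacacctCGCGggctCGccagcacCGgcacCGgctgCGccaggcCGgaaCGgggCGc
Twist2: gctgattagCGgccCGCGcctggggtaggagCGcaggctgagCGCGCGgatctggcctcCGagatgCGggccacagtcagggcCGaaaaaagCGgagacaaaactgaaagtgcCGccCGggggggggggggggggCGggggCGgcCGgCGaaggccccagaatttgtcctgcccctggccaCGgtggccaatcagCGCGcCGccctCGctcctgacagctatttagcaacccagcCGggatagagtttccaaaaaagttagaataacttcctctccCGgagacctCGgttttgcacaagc

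The windows differ in their CG content. Those of Ddr2 and S100a4 hold 2 CG each, with an observed over expected ratio of 0.18 and 0.087, while that of Twist1 holds 27 (0.83) and that of Twist2 holds 25 (0.80). The median over 32851 windows was 0.38. Pdgfra (0.26) and Prrx1 (0.36) lay between, and also under that median, with differences of -0.09 and 0.15. The printed windows were chosen by the size of the differences, so their contrast cannot show whether CG content goes with change. The letters TATAAA were searched on both strands and occurred in 13.6% of all windows, and on the gene strand in 8.32%. On the gene strand they stand at -31 to -26 in S100a4 and at -126 to -121 in Twist1, and on the other strand at -185 to -180 in Ddr2. The E-box CANNTG, the core bound by TWIST and SNAI factors, reads the same on both strands and occurred in 72.3% of all windows. Ddr2 holds 1, CATTTG at 22 to 27, Pdgfra holds 2, CATCTG at -182 to -177 and CAAATG at 18 to 23, and the windows of S100a4, Twist1, Twist2 and Prrx1 hold none. The form CACCTG, read on both strands and a subset of CANNTG, was in none of the 6 windows and in 20.2% of all. These are matches of letters in short windows, not binding sites.

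A set of 7 lists of related genes set the 9 genes in their pathways. Of 16 genes of PDGF ligands and receptor signalling, 12 were detected, none passed 1.5-fold, and the median was -0.07. Pdgfc, a ligand of PDGFRα, was highest at 0.36, with 1411 in EMF and AuNP cells and 1168 in control cells. Pdgfa, another ligand of PDGFRα, differed by -0.20, and Pdgfrl, which encodes a PDGF receptor-like protein, by -0.30. The ligand genes Pdgfc and Pdgfa thus lay on opposite sides of 0, while Pdgfra and Pdgfrb lay within the robust SD for their brightness.

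Of 13 other receptor tyrosine kinases on the arrays, 9 were detected, with a median of -0.13, 2 above 0 and none past 1.5-fold. Ddr1, the other collagen receptor of the family, had 2378 in EMF and AuNP cells and 2980 in control cells, a difference of -0.30 where Ddr2 had 0.61. Fgfr2, a fibroblast growth factor receptor, and Igf1r, the insulin-like growth factor receptor, differed by -0.55 and -0.35 at low signal, against robust SDs of 0.31 and 0.32. Fgfr2 passed 1.5-fold lower after median centring or cyclic loess.

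TWIST proteins bind DNA as dimers with E proteins, and ID proteins, which lack a DNA-binding region, compete for these partners. All 6 such genes on the arrays were detected, with a median of -0.04 and none past 1.5-fold. Tcf12, an E protein, differed by -0.49, with 1138 in EMF and AuNP cells and 1622 in control cells, and its dimmer detected probe by -1.02. Id1 differed by -0.29 and Tcf4, another E protein, by 0.24. With the 2 Tcf12 probes averaged, Tcf12 was past 1.5-fold lower.

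Among other EMT and mesenchymal transcription factors, 16 of 21 on the arrays were detected, with a median of -0.0017, 8 above 0 and 8 below. Only 1, Scx, passed 2-fold. Scx, the basic helix-loop-helix factor of tendon progenitors, had an intensity of 1673 in EMF and AuNP cells and 750 in control cells, 2.54-fold higher, or 1.34 on the log2 scale against a robust SD of 0.23. It rests on 1 probe and was 1.22 without background correction. Foxc2, a forkhead factor of mesenchyme, differed by 0.56 at low signal. Osr2, an odd-skipped factor of limb and palate mesenchyme, differed by -0.51, with 6299 in EMF and AuNP cells and 9030 in control cells. Snai1, the relative of Snai2, differed by 0.14, and Zeb1 and Zeb2, 2 repressors of epithelial genes, by 0.31 and -0.06. These last 3 genes were chosen after their values were seen.

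The rest of the S100 family lay on both sides of 0. Of 13 other S100 genes, 6 were detected, with a median of -0.0041, 3 above 0, 3 below and none past 1.5-fold. S100a13, S100a10 (which binds annexin A2) and S100a1 differed by 0.30, -0.28 and 0.24. S100a8 and S100a9, abundant in neutrophils, were not detected. Of the peptidases related to Fap, 8 of 9 were detected, with a median of -0.01 and none past 1.5-fold. Dpp4, the closest relative of Fap, was detected in control cells alone. After background correction it was at least 1.38-fold lower in EMF and AuNP cells, a bound of 1.18-fold without that correction. Prep and Dpp9, both cytosolic peptidases, differed by -0.29 and -0.28 by their brightest probes. A second detected probe of Prep, of like brightness, differed by -0.01, and that of Dpp9 by -0.40.

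The other fibroblast surface and matrix markers lay mostly below 0, with 16 of 20 detected genes below 0. This count takes the brightest probe and any size of difference, also those within the robust SD. For Col3a1 (-0.15) a dimmer detected probe lay at 0.66, while dimmer ones of Dcn and Nt5e lay at -0.41 and -0.15. Over all detected genes, 3806 of the 8646 with a value lay below 0. The median of the list was -0.15, beside 0.03 over all genes, and was not taken under other settings. Of the 20, 19 were measured on both arrays, 1 passed 1.5-fold higher and 2 lower, and none passed 2-fold. Alcam, an adhesion molecule, differed by 0.79. Cd34, a stem cell and fibroblast progenitor antigen, differed by -0.60 at low signal, against a robust SD of 0.38. Itgb1, the beta 1 integrin subunit that pairs in collagen and fibronectin receptors, differed by -0.59 against 0.23. A second detected probe of Itgb1 differed by -0.32. Neither Cd34 nor Itgb1 passed 1.5-fold without background correction, where they differed by -0.35 and -0.55. Col1a1, Col1a2 and Vim, also in this list, differed by -0.15, -0.01 and -0.37 against robust SDs of 0.14, 0.17 and 0.14. Vim, with 16747 in EMF and AuNP cells and 21838 in control cells, was also at -0.37 without background correction.

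**Figure D4:**
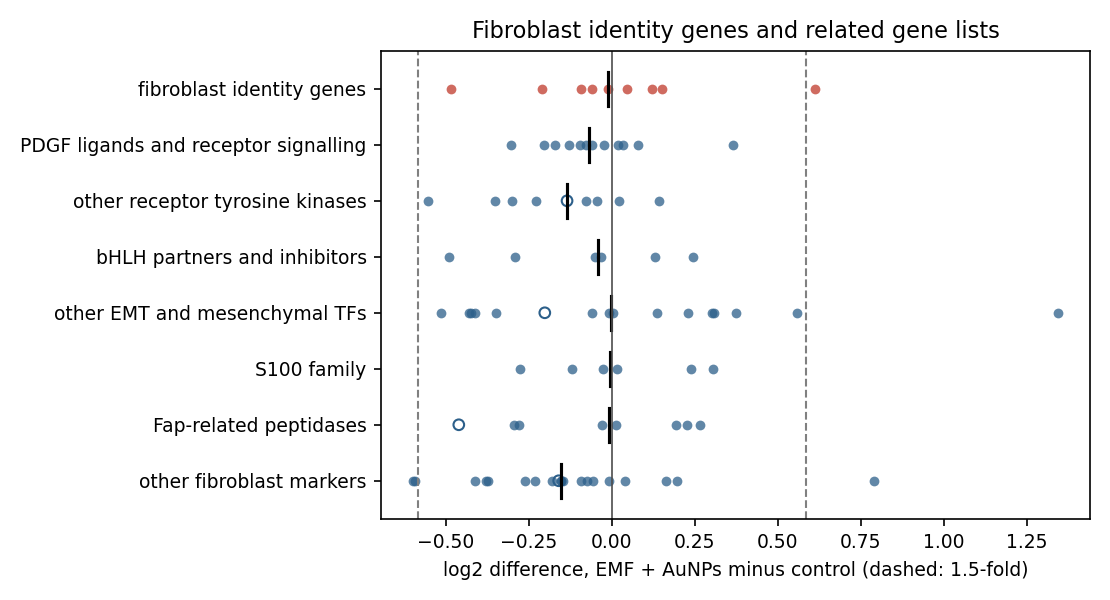
Log2 difference (EMF and AuNPs minus control) of each detected gene of the fibroblast identity genes and of 7 related lists. Filled points are measured on both arrays, open circles are bounds of genes detected on 1 array, black bars are list medians and dashed lines mark 1.5-fold. The medians lie between -0.15 and -0.0017, and the point at 1.34 is Scx.

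Markers of other cell types were read beside these genes, since several of the 9 are not exclusive to fibroblasts. Of 12 macrophage and leukocyte markers on the arrays, 11 were detected, and Itgam was not. The summed intensity of the 11 was 150952 in EMF and AuNP cells and 143151 in control cells, with 9 genes above 0, 2 below and a median difference of 0.18. Brightest of the 11 were Laptm5 (45724 in EMF and AuNP cells, 43796 in control cells), Lyz2 (42568, 46631) and Fcer1g (38676, 31786). Macrophage transcripts were thus strongly detected on both arrays. The differences of Laptm5, Lyz2 and Fcer1g were 0.08, -0.11 and 0.30, and dimmer detected Lyz2 probes lay at 0.75 and 0.15. Of the 11, 1, Cd52, passed 1.5-fold higher at 0.80. The pan-leukocyte gene Ptprc was detected by a dim probe in control cells alone. It was at least 1.42-fold lower in EMF and AuNP cells after background correction, a bound of 1.20-fold without it. Its other probe had 160 in EMF and AuNP cells and 160 in control cells and was detected on neither array. S100a4 was lower while this list was slightly higher, and the part of leukocytes in its value was not tested. Of 10 smooth muscle and pericyte markers, which bear on Pdgfrb, 8 were detected, with sums of 76538 in EMF and AuNP cells and 77862 in control cells. Most of each sum is the brightest Acta2 probe, which lies at the top of the array's range. Without Acta2, a choice made after seeing the data, the other 7 genes summed to 8399.7 in EMF and AuNP cells and 10107 in control cells. The median difference of the 8 was -0.07, with 3 above 0, Acta2 among them, and 5 below, although other Acta2 probes lay at -1.03 and -1.17. Myh11, the smooth muscle myosin, differed by -0.85, past 1.5-fold. Rgs5, a pericyte marker, was not detected. Of the epithelial markers 2 of 7 were detected, of the endothelial 3 of 7, of the neuronal 1 of 8, of the adipocyte 3 of 6, of the skeletal muscle 1 of 6 and of the glial 0 of 2. The sums over the detected epithelial markers were 661 in EMF and AuNP cells and 706 in control cells, and those over the endothelial ones were 627 in EMF and AuNP cells and 682 in control cells. The 1 neuronal marker, Map2, had 2384 in EMF and AuNP cells and 2663 in control cells by its brightest probe. Other Map2 probes had 146 and 141 in EMF and AuNP cells and 148 and 176 in control cells, and were detected on neither array. The adipocyte markers summed to 18913 in EMF and AuNP cells and 24745 in control cells, nearly all of it Lpl, and the 1 skeletal muscle marker, Acta1, had 1017 in EMF and AuNP cells and 1006 in control cells. Cdh1, the epithelial cadherin that TWIST and SNAI factors repress, was not detected on either array. Of the reference genes, Actb differed by 0.12, Gapdh by 0.03 and Hprt by 0.09.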

How the data were processed

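Total RNA from 1 sample per condition was labelled as biotinylated cRNA, per the labels' protocols. The authors deposited a probe intensity on a linear scale, not normalized between arrays, and a detection p-value in steps of 1 in 798. Per the submitters' processing notes GenomeStudio 2011.1 was used, and further steps are not given in the sources used here. A second table, which the authors deposited, holds log2 values that equal the quantile normalized log2 intensities without background correction to within 5e-07. Their median is 7.35 on both arrays. The median intensity was 162 on the EMF and AuNP array and 165 on the control array, with 46.6% and 46.7% of probes detected.

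Background correction and quantile normalization were done with neqc of limma 3.58.1 (R 4.3.3, offset 16), which takes the negative-control moments from the detection p-values. The detection limit was a p of 0.01. The brightest probe that passed it on either array stood for its gene. This gave 8651 genes, of which 8199 were measured on both arrays. Where 1 array alone passed, the fold is a lower bound. It was taken against the dim array's smallest detected value or the probe's value there, whichever is larger. This bound takes no account of noise in the detected value. Calls are by size (2-fold, and 1.5-fold), with no test. The platform annotation names 1 gene for 23978 probes and leaves 1719 unnamed, and 23962 matched an Entrez number of the GRCm38.p6 RefSeq table. The steps were tested on simulated arrays with known changes. Their noise was set below the spread of these arrays and only probes well above background were changed. That test therefore does not show how precise the differences reported here are. The genes and lists were chosen with earlier results of these data known. Named in the text are all probes of the 9 genes, up to 3 detected genes of each list with the largest difference, markers needed to say what was detected, and 3 reference genes. Outside this rule, Snai1, Zeb1, Zeb2, Acta2, Adgre1, Laptm5, Lyz2, Col3a1, Dcn and Nt5e were named after their values were seen. Alternatives covered the background correction, the normalization, the deposited log2 values, probe averaging and the detection limit.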

Additional observations from a re-analysis of the deposited data

How the results depend on the processing

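All 9 genes stayed under 2-fold in both directions under all 8 alternative settings. Their differences kept their sign under each, except that of Twist1, which ran from -0.01 to 0.04. Pdgfra ran from -0.09 to -0.0022, Pdgfrb from 0.12 to 0.16, Thy1 from 0.02 to 0.12, Fap from -0.23 to -0.19, S100a4 from -0.50 to -0.43, Twist2 from -0.07 to -0.01 and Prrx1 from 0.09 to 0.19. Ddr2 ran from 0.54 to 0.61. Its call at 1.5-fold was lost with normexp and an offset of 50 (0.56), without background correction (0.54) and in the deposited log2 values (0.54), which leaves 0 of the 9 genes past 1.5-fold in these 3 settings. Over all genes, the count past 2-fold in either direction was 87, and 48 with normexp, 40 without background correction, 40 in the deposited log2 values and 160 with no detection filter. That past 1.5-fold was 541, and 305, 257, 257 and 923 in the same order. For the smooth muscle and pericyte markers, the ratio of summed intensity was 0.983, and 0.831 without Acta2, a setting added after seeing the data. In the related lists, 9 counts of genes past 1.5-fold lower moved, in each case by 1 or 2 genes. The filter adds or removes dim genes by construction, and otherwise the cause was not tested. No paired analysis was possible because each condition has 1 array. For the same reason no array could be left out. Signal over background limits the fourth Prrx1 probe (detection p 0.0113 on each array) and genes with a bound.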

Other observations

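Probes of 1 gene can disagree widely in genes that bear on fibroblast state. The smooth muscle actin gene Acta2, a marker of myofibroblasts chosen here after its values were seen, has 4 detected probes, all annotated to NM_007392. The brightest had an intensity of 68139 in EMF and AuNP cells and 67755 in control cells, a log2 difference of 0.03, and it is the brightest probe of the EMF and AuNP array, where the highest intensity is 68139, close to the highest of 69257 on the control array. ILMN_2710353 had 13202 in EMF and AuNP cells and 27242 in control cells, a difference of -1.03, and ILMN_2710354 had 16940 in EMF and AuNP cells and 38509.6 in control cells, a difference of -1.17. ILMN_2923445 differed by -0.14. The macrophage gene Adgre1, likewise chosen after its values were seen, has 2 detected probes at 0.06 and 0.13 and a dimmer one at -1.38.

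The promoter windows read for Ddr2 and S100a4, the 2 genes with the largest differences, were CG-poor. That of Ddr2 lies at a start 21892 bases inside the annotated gene, and no window further upstream was read. The same CG ratio was then read over all genes, after these values were seen. Of 8199 genes measured on both arrays, 6695 had a window. With these genes split into 3 equal classes by the ratio, at 0.656 and 0.854, 8.11% of the lowest class differed by 1.5-fold or more in either direction, 4.62% of the middle class and 3.99% of the highest. Among genes as bright as Ddr2 and S100a4 the shares were 8.52% of 223, 3.73% of 241 and 4.07% of 221. This is a description of 2 arrays. Of the 4 identity genes in the lowest class, only Ddr2 passed 1.5-fold, and not under every setting. S100a4 differed by -0.49, Pdgfra (ratio 0.26) by -0.09 and Prrx1 (0.36) by 0.15. Twist1 and Twist2 fall in the middle class.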
